A study of Cicer arietinum with 8 samples.

Results

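U357, CA0897, CA0857, CA0203 and U371 are 5 chickpea (Cicer arietinum) cDNAs, of 768 features on a spotted pulse array, whose transcripts carry no functional annotation. The feature list of the study describes U357 (GenBank DY475377), CA0857 (EB085040) and U371 (DY475390) as Unknown, and CA0897 (EB085045) and CA0203 (EB085017) as Unclear. Names were joined by print position, which a comparison of values bore out for 4 of the 5 but could not check for U357. They were chosen by name because of their cold over control ratios in leaves, which were above 0 for U357, CA0897 and CA0857 and below 0 for CA0203 and U371 in at least 1 genotype. Leaf ratios are therefore given as a description without a test, and the tests rest on flowers and on the levels in control plants. The flower values were outside the choice. The control level in leaves is the denominator of the leaf ratio, so tests that use it are not free of the choice. All 5 were present in the scanner data and passed the filter on dim signals.

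Each hybridisation set RNA of cold-treated plants against RNA of control plants of the same genotype and tissue. The cold tolerant genotypes were Sonali (Tolerant1) and ILC 01276 (Tolerant2), and the cold susceptible ones were Amethyst (Susceptible1) and DOOEN (Susceptible2). Per the labels, 5 treated plants spent 7 nights at 5 °C with 12 h days at 15 to 25 °C from 2 weeks after flowering, while 5 control plants stayed at 15 to 25 °C in the glasshouse, and leaves or a mixed sample of flowers, buds and early pods ("flowers" here) were pooled. The 8 groups were the leaves and the flowers of these genotypes, with 3 replicates each except Tolerant2 flowers and Susceptible2 flowers, which had 2 because the files of their replicate 3 were identical to those of replicate 1. This left 12 leaf and 10 flower hybridisations. RNA came from pooled tissue, so a group shows its genotype and pool, and fewer cells of a type and less RNA per cell cannot be told apart.

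In plants, low temperature induces a transcriptional programme in which CBF/DREB factors bind the promoters of cold-regulated genes, among them dehydrins, which protect membranes and proteins during cellular water loss. Besides these, cold-responsive transcripts commonly include many whose products have no assigned function. Reproductive organs are more sensitive to chilling than leaves in chickpea, where flowers and young pods abort after cold nights. The roles of the 5 transcripts are not known, so only their expression can be described.

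The ratio is given as log2 of cold over control, so that 1 is 2-fold higher in cold-treated plants. The level is the log2 intensity of 1 channel after normalization. It is comparable between hybridisations for 1 transcript but not between transcripts. A value is the mean of up to 6 spots. The 4 hybridisations quantified first, replicate 1 of both tissues of Tolerant1 and Susceptible1, had 17.9% to 42.2% of spots unflagged in both channels, against 56.3% to 75.7% in the other 18. No spot of CA0857 was unflagged in both channels of replicate 1 of Tolerant1 leaves or Susceptible1 leaves, and none of CA0203 in replicate 1 of Tolerant1 leaves. In replicate 1 of Tolerant1 leaves the control channel of U357 was only 1.79 times its background and 2 of its 6 spots remained. No member spot reached the scanner maximum in its mean signal. For 2 leaf hybridisations, those of replicate 1 in Tolerant1 and in Susceptible1, the dyes are known from file names only, and a wrong assignment would turn the sign of their ratios. Without these 2 hybridisations the leaf ratio was above 0 in 10 of 10 values for U357 and CA0857 and in 9 of 10 for CA0897, and below 0 in 10 of 10 for CA0203 and 7 of 10 for U371. The leaf means described next were then 1.05 for U357, 1.06 for CA0897, 1.002 for CA0857, -1.10 for CA0203 and -0.67 for U371. Of 18 photosynthesis features taken as leaf markers 15 could be tested, and in control plants 8 were higher and 2 lower in leaves than in flowers (median difference 0.75 on the log2 scale, against -0.12 over all 406 features). The array holds no feature fixed as a marker of flowers or pods.

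U357 had a ratio above 0 on all 12 leaf hybridisations. In Tolerant1 leaves its log2 ratios were 0.06, 0.95 and 1.58. In Tolerant2 leaves they were 1.10, 1.23 and 0.53. In the susceptible genotypes they were 0.72, 1.69 and 1.10 in Susceptible1 leaves and 0.92, 0.69 and 0.17 in Susceptible2 leaves. The mean over the 4 genotypes was 0.89 (SE 0.12), or 1.86-fold, and the lowest value was that of the hybridisation with only 2 usable spots. Of the 477 features with at least 8 leaf values, 4.19% were above 0 in every one.

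CA0897 was above 0 on 11 of 12 leaf hybridisations. Its log2 ratios were 0.76, 0.94 and 1.25 in Tolerant1 leaves and 0.54, -0.06 and 1.42 in Tolerant2 leaves. They were 0.82, 0.36 and 1.52 in Susceptible1 leaves and 2.42, 1.58 and 0.72 in Susceptible2 leaves. The mean over genotypes was 1.02 (SE 0.15), or 2.03-fold. The highest value came from Susceptible2 leaves and the lowest from Tolerant2 leaves, and the values of all 4 genotypes overlapped.

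CA0857 was above 0 in all 10 leaf values. Replicates 2 and 3 of Tolerant1 leaves gave 1.33 and 1.56, the highest of its leaf values. Tolerant2 leaves gave 1.31, 1.13 and 0.36. Susceptible1 leaves gave 1.11 and 1.03 from replicates 2 and 3, and Susceptible2 leaves gave 0.45, 1.02 and 0.20. The mean over genotypes was 1.002 (SE 0.15), or 2.002-fold.

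CA0203 was below 0 in all 11 leaf values, which held for 1.47% of the features with at least 8 leaf values. Its log2 ratios were -1.10 and -1.42 in replicates 2 and 3 of Tolerant1 leaves and -2.30, -1.18 and -0.75 in Tolerant2 leaves. They were -1.37, -1.47 and -0.89 in Susceptible1 leaves and -1.11, -0.33 and -0.17 in Susceptible2 leaves. The mean over genotypes was -1.11 (SE 0.14), that is a cold level 2.16-fold below the control level. Tolerant2 leaves had the most negative value and Susceptible2 leaves the 2 closest to 0.

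U371 had leaf ratios on both sides of 0, with 8 of 12 values below it and the other 4 all in the susceptible genotypes. In Tolerant1 leaves it was -0.15, -1.89 and -2.10, and in Tolerant2 leaves it was -1.07, -0.62 and -0.07, so all 6 values of the tolerant genotypes were below 0. In Susceptible1 leaves it was 0.27, 0.01 and -0.95, and in Susceptible2 leaves it was 0.99, 0.45 and -0.33. The value of 0.27 rested on 2 spots (SD 0.50) with the control channel at 2.08 times its background. That of -0.15 in Tolerant1 leaves rested on 3 spots (SD 0.35) with the control channel at 1.68 times its background. The mean in leaves of the tolerant genotypes lay 1.06 (SE 0.33) below that of the susceptible genotypes, and the ranges overlapped. This difference is a description, as it is made of ratios that chose U371, and its SE does not allow for the choice. Over all 4 genotypes the mean was -0.46 (SE 0.17). The authors' table, as an alternative, gave -1.002 for this mean and -2.79, against -1.38 here, for Tolerant1 leaves.

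**Figure D1:**
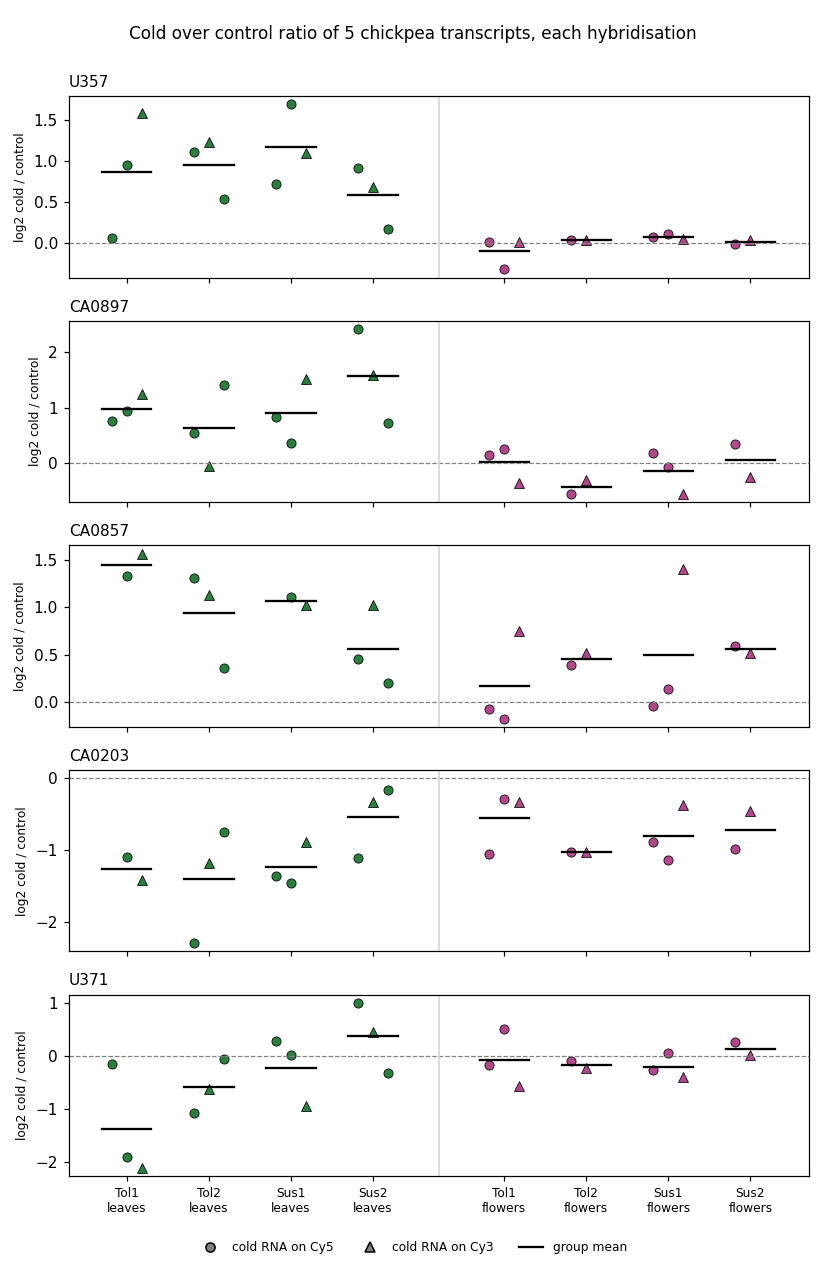
Log2 ratio of cold-treated over control plants for the 5 transcripts (vertical axis, 1 panel each) in leaves (green) and flowers (purple) of Tolerant1, Tolerant2, Susceptible1 and Susceptible2 (Tol1, Tol2, Sus1, Sus2). Each point is 1 hybridisation, circles with the cold RNA on Cy5 and triangles on Cy3, and bars are group means. U357, CA0857 and CA0203 keep 1 sign in every leaf value, and CA0203 is below 0 in every flower value as well.

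These leaf ratios chose the transcripts, so calls on the members would follow from the choice and are not given. Over all features the limma model (adjusted p below 0.05 and at least 2-fold) called 1.26% of the 475 tested in Tolerant1 leaves. It called 0.586% of 512 in Tolerant2 leaves, 0.797% of 502 in Susceptible1 leaves and 0.389% of 514 in Susceptible2 leaves.

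Flowers were not used in the choice, and the question there was whether the same transcripts responded to cold in reproductive tissue. CA0203 was the 1 member called there, in the mean over the 4 genotypes, and this call was lost in several of the settings below. Its log2 ratio was -1.06, -0.29 and -0.33 in Tolerant1 flowers and -1.04 and -1.03 in Tolerant2 flowers. It was -0.89, -1.14 and -0.38 in Susceptible1 flowers and -0.98 and -0.46 in Susceptible2 flowers. All 10 values were thus below 0, as for 0.665% of the 451 features with at least 8 flower values. Averaged over the 4 genotypes CA0203 fell by 0.78 on the log2 scale (SE 0.15, 95% interval -1.09 to -0.47, adjusted p = 0.0145 by limma), a 1.72-fold lower level in cold-treated flowers. In this comparison 1.12% of 446 features were called, 0.673% higher and 0.448% lower, and 7.85% had an unadjusted p below 0.05. It was below 0 in each of the 3 quantification periods, at -0.98, -0.53 and -0.88, and with either dye order, at -0.90 with the cold RNA on Cy5 and -0.55 on Cy3. The call was lost without replicate 1 of Susceptible2 flowers (adjusted p = 0.0821 by limma), without replicate 1 or replicate 2 of Tolerant2 flowers (0.0768 and 0.0890) and without the hybridisations quantified first (0.0980). It was also lost with flagged spots kept (0.0808) and with same-numbered replicates as a block (0.0864), with values of -0.79 to -0.70 in these settings.

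No member was called in the flowers of a single genotype, and neither was any other feature (0% of 478 to 535 features called by limma, and 0 by the methods' t-test after adjustment). An unadjusted p below 0.05 was found for 13.6% of the features in Tolerant1 flowers, 1.88% in Tolerant2 flowers, 6.19% in Susceptible1 flowers and 2.99% in Susceptible2 flowers. Without replicate 3 of Tolerant1 flowers 20 features were called there, none of them a member. CA0203 had unadjusted p-values of 0.0504, 0.00548, 0.00755 and 0.0404 in these groups by limma, with adjusted p-values from 0.365 to 0.9999.

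U357 was close to 0 in flowers. Its 10 values ranged from -0.32 to 0.11 with a median of 0.03, and only replicate 2 of Tolerant1 flowers lay outside -0.01 to 0.11. The mean over genotypes was 0.01 (SE 0.13, 95% interval -0.27 to 0.29, adjusted p = 0.9997 by limma), so a 2-fold change in either direction lies outside the interval. This holds for the main normalization. Over the alternative settings the mean ran from -0.0053 to 0.154, and median centring without loess gave 0.50 in Tolerant1 flowers. The flower mean of CA0897 was -0.13 (SE 0.17, interval -0.48 to 0.22, adjusted p = 0.909). Its 4 hybridisations with the cold RNA on Cy3 averaged -0.37 and the 6 on Cy5 0.05. All 4 on Cy3 were below 0. The part of dye order in these values was not tested.

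CA0857 had a flower mean of 0.42 (SE 0.15, interval 0.11 to 0.74), with an unadjusted p of 0.0116 and an adjusted p of 0.331, and was not called. Its values were -0.07, -0.17 and 0.75 in Tolerant1 flowers and 0.39 and 0.52 in Tolerant2 flowers. They were -0.03, 0.14 and 1.40 in Susceptible1 flowers and 0.60 and 0.52 in Susceptible2 flowers. The 2 highest came from hybridisations with the cold RNA on Cy3, on which the mean was 0.80, against 0.14 on Cy5. U371 had a flower mean of -0.08 (SE 0.19, interval -0.47 to 0.31, adjusted p = 0.998), and its 10 values spread from -0.57 to 0.51 on both sides of 0.

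The leaf minus flower difference of the ratio contains the leaf values that chose the members and is a description. It was 1.16 (SE 0.22) for CA0897, 0.89 (SE 0.18) for U357 and 0.58 (SE 0.21) for CA0857. It was -0.33 (SE 0.20) for CA0203 and -0.38 (SE 0.25) for U371. The SEs do not allow for the choice, so neither a tissue difference nor its absence is read from them. Of 406 features 1.72% were called in this contrast, and for the members no call is drawn from it. The leaf and flower values of each member overlapped, as did those of all 429 features with at least 8 values per tissue (0% without overlap in either direction). For U357 the overlap rested on replicate 1 of Tolerant1 leaves, at 0.06, which lay below 2 of the 10 flower values.

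The cold response in flowers was also compared between tolerance classes. The tolerant minus susceptible difference of the ratio was -0.08 (SE 0.26) for U357, -0.16 (SE 0.33) for CA0897 and -0.21 (SE 0.30) for CA0857. It was -0.03 (SE 0.30) for CA0203 and -0.08 (SE 0.37) for U371. The adjusted p was 0.998 for all 5 and 0% of 446 features were called, with 0.224% at an unadjusted p below 0.05. The 95% intervals reached from -0.63 to 0.48 for U357 and from -0.87 to 0.70 for U371, so differences of that size between the classes lay within the intervals. Data were simulated for this contrast with 200 of 446 features changed and noise independent between hybridisations. In them a difference of 1 was recovered for 76.0% of changed features and one of 0.5 for 4.50%. Recovery with few changed features or with correlated replicates was not simulated. Same-numbered flower hybridisations of the classes were correlated, as described below, and the SEs given here leave that correlation out.

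**Figure D2:**
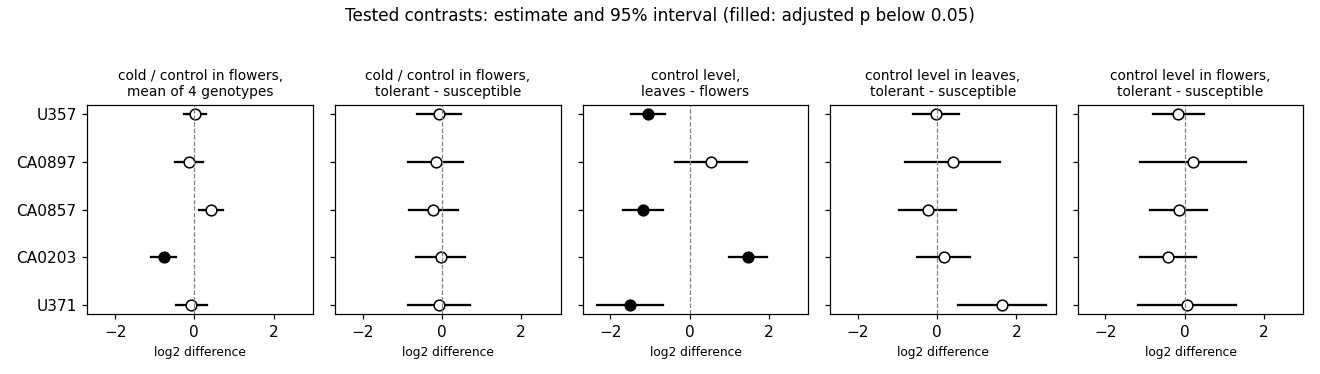
Estimates (points) and 95% intervals (lines) of the 5 tested contrasts for each transcript, on the log2 scale. Filled points had an adjusted p below 0.05, which was reached by CA0203 for the cold ratio in flowers and by U357, CA0857, CA0203 and U371 for the control level in leaves minus flowers.

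The levels in control plants showed where the transcripts were abundant without cold. Of the 5 members, 4 differed between leaves and flowers, against 39.4% of the 406 features tested (17.5% higher and 21.9% lower in leaves). The leaf levels in this comparison are part of the ratios that chose the members, so the count cannot be set apart from the choice. CA0203 was the 1 that was higher in leaves. In leaves its control level ran from 13.50 to 15.44 with a median of 15.13 over 11 values, and in flowers from 12.33 to 13.84 with a median of 13.69 over 10 values. Only replicate 1 of Susceptible1 leaves lay within the flower range. The difference was 1.47 (SE 0.23, 95% interval 0.99 to 1.96, adjusted p = 0.000161), or 2.78-fold. CA0203 thus combined a higher control level in leaves with a lower level after cold in flowers, the latter a call that did not hold in all settings.

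U357 was lower in control leaves, where it ran from 13.54 to 14.33 with a median of 13.93 over 12 values, than in control flowers, where it ran from 13.73 to 15.48 with a median of 15.14. The difference was -1.06 (SE 0.21, interval -1.49 to -0.62, adjusted p = 0.000804), or 2.08-fold. In cold-treated plants the mean level in the main scaling was 14.84 in leaves and 14.97 in flowers. The leaf value contains the ratio that chose U357, and the tissue difference depended on the scaling, as described below. CA0857 had the same order, with 10.98 to 12.11 (median 11.63) in control leaves and 11.89 to 13.97 (median 12.63) in control flowers. Its difference was -1.17 (SE 0.24, interval -1.69 to -0.66, adjusted p = 0.00152), or 2.26-fold. After cold its mean level was 12.53 in leaves and 13.09 in flowers.

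U371 was also lower in control leaves, at 10.62 to 15.13 (median 12.99), than in control flowers, at 12.44 to 15.44 (median 14.61). The difference was -1.50 (SE 0.39, interval -2.33 to -0.67, adjusted p = 0.00615), or 2.84-fold. CA0897 was not called, with 10.65 to 13.92 (median 12.35) in control leaves and 10.35 to 12.94 (median 11.98) in control flowers, and a difference of 0.54 (SE 0.43, interval -0.36 to 1.45, adjusted p = 0.353). After cold its mean level was 13.47 in leaves and 11.72 in flowers. In all 5 cases the leaf and flower values overlapped, whereas 2.80% of 429 features were higher and 2.56% lower in leaves without overlap.

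In leaves the control level is the denominator of the ratio that chose the members, so the mean of both channels was tested as well. It gave leaf minus flower differences of 1.29 for CA0203 (adjusted p = 0.000688), -0.61 for U357 (0.0134), -0.88 for CA0857 (0.00311), -1.68 for U371 (0.000888) and 1.14 for CA0897 (0.0327). With each array centred on its median intensity instead of matched intensity distributions, the difference was -0.33 for U357 (adjusted p = 0.306) and -1.03 for U371 (0.0514), while CA0203 and CA0857 were still called. Calls of U357 and U371 therefore depended on this scaling. The median difference of all features was then 0.08, against -0.12 in the main scaling, and 98 features were higher and 55 lower in leaves. Within the 3 quantification periods the differences of U357 were -1.08, -0.87 and -1.17 and those of U371 were -1.28, -0.67 and -2.10. For CA0203 they were 0.08, with 1 leaf value, 1.74 and 1.49, and for CA0857 they were -0.99 and -0.89 in the later periods, with no leaf value in the first.

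**Figure D3:**
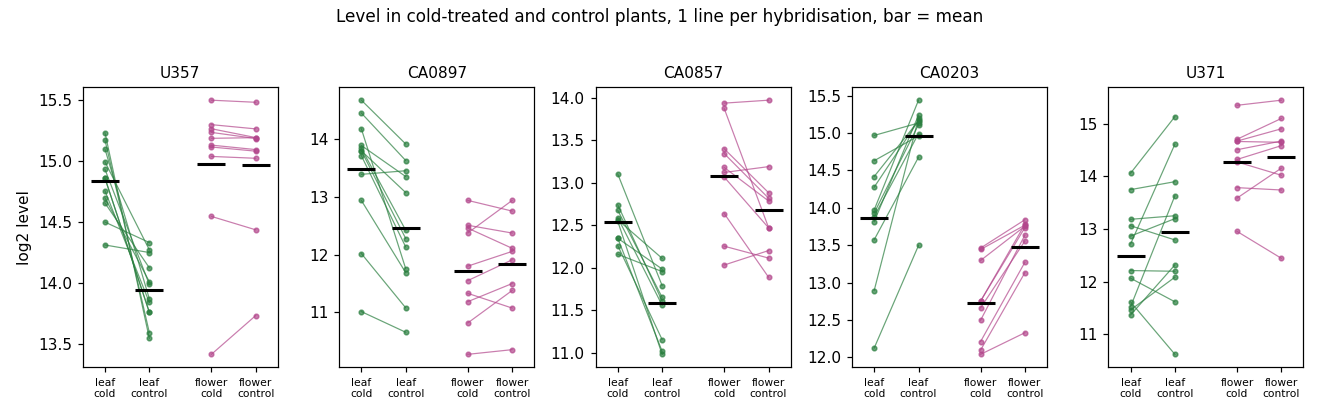
Log2 level of the 5 transcripts in cold-treated and control plants of leaves (green) and flowers (purple). Each line joins the channels of 1 hybridisation and bars are means, for U357 14.84 in cold-treated and 13.94 in control leaves, and 14.97 in both channels of flowers.

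Between genotypes, no difference in the control level of a member passed the test. In leaves the group means of U357 lay between 13.86 and 14.06 and those of CA0203 between 14.70 and 15.16, with group SDs up to 1.05 for CA0203. The highest mean of CA0897 was 13.07 (Tolerant2 leaves) and the lowest 12.19 (Susceptible1 leaves). For CA0857 they were 11.91 (Susceptible2 leaves) and 11.002 (Tolerant1 leaves). In flowers the lowest mean was that of Tolerant1 for U357, CA0857, CA0203 and U371 and that of Susceptible1 for CA0897. For U357, CA0203 and U371 the Tolerant1 mean was pulled down by 1 hybridisation, replicate 2, at 13.73, 12.33 and 12.44. The other replicates of Tolerant1 flowers gave 15.48 and 15.02 for U357, 13.27 and 13.77 for CA0203, and 14.67 and 14.15 for U371. This order is therefore not read as a trait of the genotype. The F test over the 4 genotypes called no member, with adjusted p-values of 0.756 to 0.999 in leaves and of 0.997 in flowers, against 0.225% of 445 features called in leaves and 0% of 446 in flowers.

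U371 had the widest range of genotype means. Its control level averaged 14.05 ± 0.51 in Tolerant1 leaves and 13.49 ± 1.54 in Tolerant2 leaves, and 12.44 ± 0.31 in Susceptible1 leaves and 11.81 ± 1.30 in Susceptible2 leaves (SD, n = 3 each). The tolerant minus susceptible difference was 1.64 (SE 0.52, 95% interval 0.54 to 2.75), or 3.12-fold. It had an unadjusted p of 0.00603 and an adjusted p of 0.997 by limma, so it did not pass the test, and 0% of the features were called (2.02% at an unadjusted p below 0.05). These leaf control levels are part of the ratio by which U371 was chosen, and the difference was 1.11 for the mean of both channels (adjusted p = 0.997). After cold the leaf means of the tolerant genotypes were 12.66 (Tolerant1) and 12.90 (Tolerant2), and those of the susceptible genotypes 12.21 (Susceptible1) and 12.18 (Susceptible2). In flowers the tolerant minus susceptible difference of U371 was 0.06 (SE 0.58). The other 4 members had differences of -0.23 to 0.40 in leaves and of -0.42 to 0.21 in flowers, with adjusted p-values of 0.9904 to 0.997. In flowers 0% of 446 features were called, and 0.897% had an unadjusted p below 0.05.

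**Figure D4:**
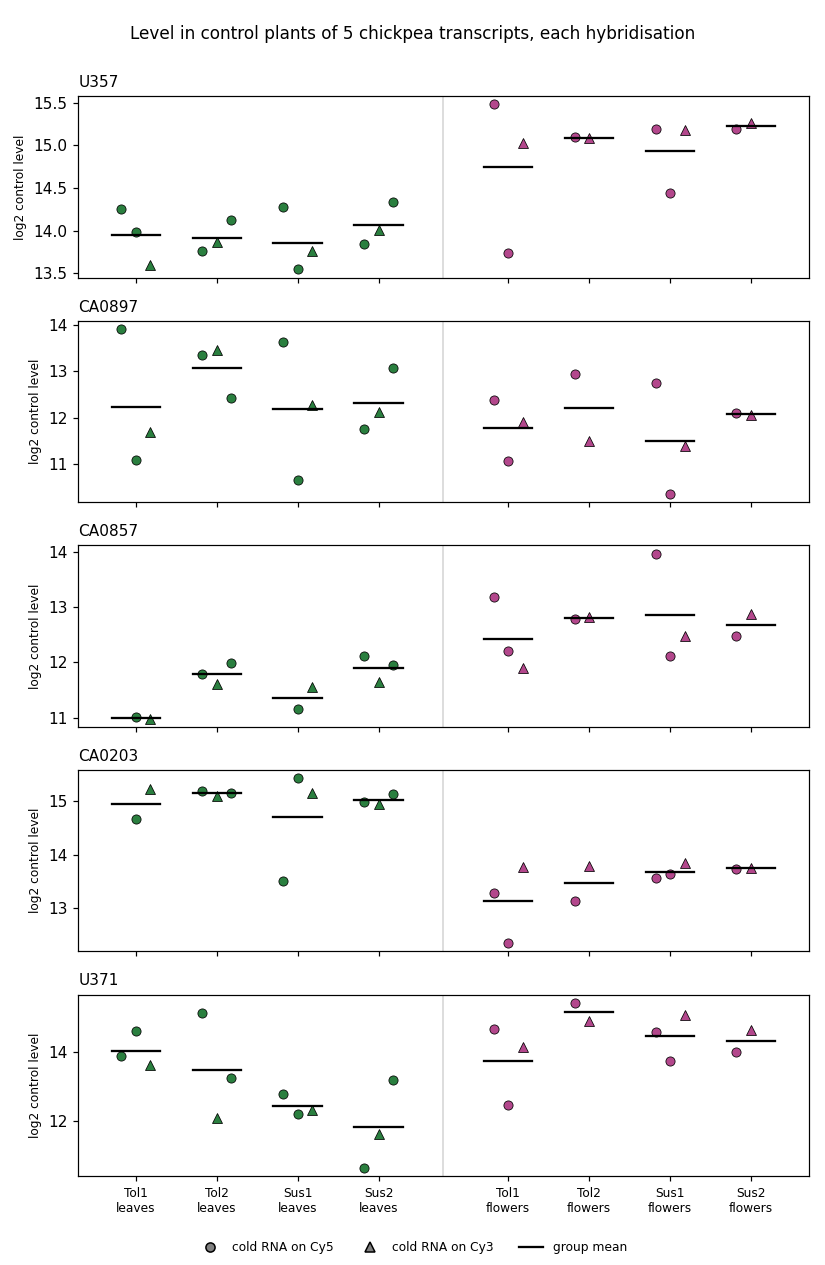
Log2 level in control plants of the 5 transcripts (vertical axis, 1 panel each) in leaves (green) and flowers (purple) of Tolerant1, Tolerant2, Susceptible1 and Susceptible2. Points are hybridisations and bars group means. CA0203 is higher and U357, CA0857 and U371 are lower in leaves, and U371 averages 14.05 and 13.49 in leaves of the tolerant genotypes and 12.44 and 11.81 in leaves of the susceptible ones.

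The features whose ratio followed each member most closely were listed as a description. Pearson's r was taken over the hybridisations with values for both, which share slides and dyes. These span both tissues and include the leaf ratios that chose the members, so r also follows differences between group means. For U357 these were the Unknown transcript U362 (DY475382, r = 0.890 over 21 hybridisations), U400 (DY475417, r = 0.810 over 15), named a probable 3-hydroxyisobutyrate dehydrogenase, an enzyme of valine breakdown, and U298 (CV793588, r = 0.727 over 19), named a gamma-thionin type defensin, a small cysteine-rich antimicrobial peptide. Among the members, CA0857 was closest to U357, with r = 0.710 over 20.

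CA0897 was followed by U455 (DY475472, Unknown, r = 0.772 over 20), U081 (DY475122, an amino acid transferase, r = 0.693 over 17) and U497 (DY475511, r = 0.677 over 18), named a histidine-containing phosphotransfer protein, a type that relays phosphate in two-component signalling such as that of cytokinin. CA0857 was followed by U119, U488 and U428 (DY475158, DY475503 and DY475445), all Unknown, with r = 0.790, 0.786 and 0.750 over 20 each. Of these, U488 had a leaf mean of 1.03 and a flower mean of 0.05, whereas U119 and U428 had leaf means of only 0.17 and -0.03.

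CA0203 was followed by U462 (DY475479, r = 0.708 over 18), named a serine:glyoxylate aminotransferase, an enzyme of photorespiration, by U444 (DY475461, Unknown, r = 0.690 over 20) and by U472 (DY475489, r = 0.667 over 21), named a chlorophyll a/b binding protein of the light-harvesting antenna. The leaf means of U462 and U472 were -0.43 and -0.70. U371 was followed by features named for cell wall enzymes, the xylosidase U391 (DY475408, r = 0.834 over 17) and the beta-galactosidase U102 (DY475141, r = 0.721 over 18), and by the Unknown U256 (DY475293, r = 0.707 over 20). U391 and U102 had leaf means of -0.72 and -0.82, and flower means of -0.09 and 0.40.

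The annotation classes of the members were centred near 0. Over the 179 Unknown features with enough leaf replicates the median of the leaf mean was 0.00, with a range from -0.67 to 1.03, and over the 39 Unclear ones it was 0.06, with a range from -1.11 to 1.02 whose ends were the chosen CA0203 and CA0897. Over all 445 features the median was 0.00 and 9.66% were called. For the control level, 27 of 173 Unknown features were higher and 36 lower in leaves than in flowers, and 5 and 6 of 37 Unclear ones, with medians of -0.04 and -0.12 beside -0.12 over all 406. Of 5 features named for dehydrin or dehydration, 4 to 5 had a value per group, 2 to 4 had enough replicates to be tested, and none was called in any single group. The 1 with enough leaf replicates for the mean over genotypes, U026, was called lower at -1.29, although it was 0.21 in Susceptible2 leaves. The leaf means of LS0297 (0.89), U048 (0.09) and U153 (-0.53) rested on fewer replicates and were not tested, and LS0283 had none. The list thus did not move in 1 direction in leaves.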

How the data were processed

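The deposited scanner files hold spot intensity per channel (mean signal, mean local background, flag), quantified by the authors with ImaGene 5.5 and not normalized. The authors' deposited table holds 1 mean log2 value per group, with background subtraction, LOWESS normalization and a log shift of unstated size, and served as an alternative. The 5 transcripts, lists and tests were chosen with earlier results of these data known.

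Intensities were corrected with normexp (offset 50) in limma 3.58.1 (R 4.3.3), normalized per hybridisation by loess (span 0.3, flagged and control spots at weight 0) and, for levels, Aquantile. Spots flagged in either channel were left out, dye swaps were turned to cold over control, and spots were averaged. Features needed a signal of 2 times background in 1 channel, which 738 of 756 passed, and 690 of these had an unflagged value. One limma model over the 8 groups (control levels with the dye as a term) gave moderated two-sided tests with Benjamini-Hochberg adjustment over features with at least 2 replicates per group. It called features at an adjusted p below 0.05, and single groups also at 2-fold. Replicates are 3 biological replications per the labels, and the number of arrays limits the precision. Named features were the 5 members and, for each, the 3 with the highest r over at least 15 hybridisations. The steps were tested on simulated data. Features were joined to the study's list by print position. No sequence or genome position was used, as 0 of 668 accessions matched the reference table.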

Additional observations from a re-analysis of the deposited data

Results flagged for a closer look

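The flower ratios of U371 had opposite signs in every replicate of 1 pair of genotypes, Tolerant2 at -0.10 and -0.23 and Susceptible2 at 0.25 and 0.02, although neither passed the test. The group means of Tolerant1 (-0.07) and Susceptible1 (-0.20) were below 0 as well. The difference of the means, Tolerant2 minus Susceptible2, was -0.30. This difference between groups of 2 replicates was not tested.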

How the results depend on the processing

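The fall of CA0203 in flowers kept its sign under every alternative run but not its call. It was -0.79 with flagged spots kept, -0.70 without the first quantification period (an alternative chosen after seeing the data) and -0.84 to -0.71 when hybridisations were left out one at a time (adjusted p 0.00440 to 0.0890). Same-numbered replicates of a tolerant and a susceptible genotype correlated over 0.1 in 10 of 11 pairs (lowest -0.11, a leaf pair), so the numbers were not taken to pair all samples. The 5 flower pairs all correlated (0.366 to 0.525). The main flower tests treated these hybridisations as independent, so their SEs and p-values leave this correlation out. With the replicate block (correlation 0.469) the flower mean of CA0203 was -0.78 (adjusted p = 0.0864 by limma) and 0 features were called in the mean over genotypes. That count, 5 in the main setting, was 12 with each deposited hybridisation counted, 1 with flagged spots kept, 3 with median centring, 2 without the first period and 0 to 8 when hybridisations were left out (0 without replicate 1 of Susceptible2 flowers or either replicate of Tolerant2 flowers). Counting each deposited hybridisation called 2 features in Susceptible2 flowers and 2 for the tolerant minus susceptible control level in flowers, and keeping flagged spots called 1 in Susceptible2 flowers. Leaving out 1 hybridisation gave 0 to 20 calls in Tolerant1 flowers and 0 to 1 for the control level between classes in leaves (1 without replicate 3 of Tolerant1 leaves). For the control level between tissues, median centring between arrays gave -0.33 for U357 and -1.03 for U371, which lost their calls, and the mean of both channels gave 1.14 for CA0897, which gained one. The leaf minus flower ratio of U371 was -1.0 in the authors' table. The cause of these changes was not tested.

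Other changes of sign were of values that did not pass a test. In the authors' table, flower ratios of opposite sign were -0.16 (Tolerant1) and -0.29 (Susceptible2) for CA0897, 0.11 (Tolerant1) for U357 and 0.11 (Tolerant1) for U371, and the tolerant minus susceptible ratios were 0.034 for U357 and 0.037 for U371. In flowers, the ratio of CA0897 in Tolerant1 was -0.016 with a dye term, -0.040 with median centring, -0.00084 with the median over spots and -0.053 without the first period. Median centring gave U357 ratios of 0.50 (Tolerant1), -0.028 (Tolerant2) and -0.066 (Susceptible2), a U371 ratio of 0.10 (Tolerant1), and tolerant minus susceptible ratios of 0.16 for U357 and 0.012 for CA0203. For CA0203 this difference was 0.0095 with each deposited hybridisation counted and 0.069 without the first period, and the flower mean of U357 was then -0.0053. The tolerant minus susceptible control level of CA0203 in leaves was -0.35 with flagged spots kept, -0.031 with both channels and -0.11 without the first period. With median centring between arrays it was 0.071 for U357 in leaves, 0.092 for U357 in flowers and -0.10 for U371 in flowers, the last -0.14 without the first period.

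Leaving out 1 hybridisation gave these ranges. The flower mean of U357 ran from -0.0059 to 0.036. In Tolerant1 flowers the ratio ran from -0.15 to 0.016 for U357, -0.11 to 0.19 for CA0897, -0.12 to 0.34 for CA0857 and -0.37 to 0.17 for U371. For CA0897 it ran from -0.32 to 0.052 in Susceptible1 flowers and from -0.26 to 0.35 in Susceptible2 flowers, and for U357 from -0.0054 to 0.035 in Susceptible2 flowers. The tolerant minus susceptible ratio in flowers ran from -0.16 to 0.097 for CA0203, -0.36 to 0.010 for CA0857 and -0.23 to 0.039 for U371. The tolerant minus susceptible control level in flowers ran from -0.36 to 0.096 for U357, -0.13 to 0.56 for CA0897, -0.36 to 0.12 for CA0857 and -0.17 to 0.42 for U371. In leaves it ran from -0.11 to 0.077 for U357, -0.022 to 0.75 for CA0897 and -0.11 to 0.38 for CA0203. Leaving out 1 replicate of a pair left a lone sample assumed to vary like the other groups. Dim control signals in the first period, down to 1.79 times background for U357 and 1.68 times for U371, limited the leaf values there.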

Other observations

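In Tolerant2 leaves, replicate 3 had the ratio nearest to 0 of the 3 replicates for 4 of the 5 transcripts (not for CA0897), and in Susceptible2 leaves for 5 of 5. U357 and U371 are neighbouring spots in each sub-array. Their ratios had r = -0.437 over 22 hybridisations, which share slides.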
